A study of Mus musculus with 4 samples.

Results

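Pik3ap1, the B-cell adaptor for phosphoinositide 3-kinase, was examined together with 8 genes of the class I phosphoinositide 3-kinase pathway: the regulatory subunits Pik3r1 and Pik3r5, the catalytic subunits Pik3ca, Pik3cb, Pik3cd and Pik3cg, the lipid phosphatase Inpp5d and the kinase Akt1. Members were taken by gene symbol: every probe set whose only symbol in the platform annotation was one of these 9 names. This gave 28 of the 34945 probe sets with a single symbol, or 9 of 18193 genes. Pik3ap1 was picked because its brightest probe set was far higher in the Ezh2 KO arrays, and the set was drawn up with that result known. The differences of the members between the groups are therefore given as descriptions, with no p-value, and whether a member passed the threshold is likewise only a description.

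The RNA came from mouse leukemic cells carrying the fusion oncogene MLL-AF9, isolated from marrow of C57BL/6 mice that had received them as transplants. The genotype label gives 2 samples as wild type and 2 as Ezh2 KO; Ezh2 is the catalytic subunit of the histone H3 lysine 27 methyltransferase PRC2. A further label of the knockout samples describes recipients reconstituted with Ink4a-/-Arf-/- marrow, whereas that of the wild-type samples names wild-type marrow, so a part of Ink4a and Arf loss in any difference cannot be told apart from that of Ezh2. MLL-AF9 is carried by both groups, and the age of the mice, how the deletion was made and the number of independent leukemias are not given in the sources used here. An amount of RNA equivalent to 10000 cells was labelled per sample, with 1 Affymetrix Mouse Genome array for each. Whether the 2 samples of a group are separate mice is not stated, so the p-values reflect the spread among these 4 arrays, which could be technical. Precision is limited throughout by the number of arrays.

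Class I phosphoinositide 3-kinases phosphorylate a membrane lipid to make PIP3, which recruits kinases such as Akt1 and so promotes growth and survival. Each enzyme pairs a catalytic p110 chain with a regulatory chain that docks it to activated receptors or adaptors. In myeloid and lymphoid cells the delta and gamma catalytic chains are prominent, Pik3ap1 (BCAP) offers phosphorylated tyrosines to which the p85 regulatory chain binds, and Inpp5d (SHIP1) removes a phosphate from PIP3. PRC2 is known to act mainly at promoters rich in CpG dinucleotides.

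Promoter windows are shown for Pik3ap1 and Pik3r1, the members with a probe set past the test's threshold, with every CpG dinucleotide (CG) in capitals. The windows cover the 250 bases before an annotated RefSeq start in GRCm38.p6, 5′ to 3′ on the gene's strand, which is the minus strand for both genes. Pik3ap1 lies at chr19:41272541-41385102, and its window at chr19:41385103-41385352. Pik3r1 lies at chr13:101680761-101768217, and has an upstream window at chr13:101768218-101768467 and an internal window at chr13:101692631-101692880, the latter within the gene before the start of its shorter transcripts.
Pik3ap1: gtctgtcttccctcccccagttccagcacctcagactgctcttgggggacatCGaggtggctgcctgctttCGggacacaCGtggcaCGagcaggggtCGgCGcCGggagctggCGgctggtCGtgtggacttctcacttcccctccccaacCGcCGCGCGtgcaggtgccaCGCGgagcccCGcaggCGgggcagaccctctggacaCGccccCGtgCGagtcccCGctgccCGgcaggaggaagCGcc
Pik3r1 upstream: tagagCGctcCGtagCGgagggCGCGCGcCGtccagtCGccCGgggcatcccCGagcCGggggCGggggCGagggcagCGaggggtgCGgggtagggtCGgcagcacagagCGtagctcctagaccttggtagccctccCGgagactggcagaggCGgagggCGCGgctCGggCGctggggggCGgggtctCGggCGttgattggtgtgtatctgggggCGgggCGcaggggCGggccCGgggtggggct
Pik3r1 internal: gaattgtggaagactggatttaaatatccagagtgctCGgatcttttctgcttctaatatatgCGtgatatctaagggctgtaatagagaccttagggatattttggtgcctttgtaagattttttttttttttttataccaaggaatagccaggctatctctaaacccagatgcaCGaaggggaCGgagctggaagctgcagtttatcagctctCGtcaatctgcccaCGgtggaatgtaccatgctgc

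The Pik3ap1 window held 23 CpGs and was 71.2% G and C. The upstream Pik3r1 window held 30 CpGs at 76.4% G and C, and the internal window held 6 at 42.4%. Over 32841 such windows of all genes the median was 6 CpGs, and 86.7% had fewer than the Pik3ap1 window. The other members were spread over the whole range: the windows of Pik3cb and Pik3ca held 32 and 19 CpGs, that of Inpp5d 5, those of Pik3cg 5 and 3, those of Akt1 31 and 7, that of Pik3r5 14, and those of Pik3cd 4, 19 and 6. A CpG-rich window was therefore not particular to Pik3ap1 among the members. The letters GAGGAA, the core of the site bound by the myeloid factor PU.1, were searched on both strands. They occurred 1 time in the Pik3ap1 window, 1 time in that of Inpp5d and 2 times in 1 of the Pik3cg windows, and 23.3% of all windows held them at least 1 time. Such matches describe the sequence and say nothing about binding.

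Log2 intensities of the 25580 probe sets tested had correlations of 0.982 within the wild type, 0.983 within the knockout and 0.973 to 0.977 across groups; probe sets are not independent replicates. The single Ezh2 probe set read 5216 and 5315 in the wild type and 4989 and 4991 in the knockout; its position relative to a deletion is not known here, so it checks nothing about the labels. All 12 markers listed for leukemic myeloid cells lay above the filter described below. Among them the granule enzyme gene Mpo read at least 32222, Elane at least 18419 and the MLL-AF9 target Hoxa9 at least 13666 on every array. Of the 12, 4 passed the threshold given below, beside 9.61% of all 13928 genes tested. In limma 6 of the 12 had an unadjusted p under 0.05, as had 3406 of the 13928 genes. The 4 are named after their values were seen. Itgam (log2 difference, knockout minus wild type, 0.74, limma adjusted p = 0.000950) and Csf1r (0.48, adjusted p = 0.00617) were higher in the knockout. Fcgr3 (-0.72, adjusted p = 0.000190) and Cebpa (-0.63, adjusted p = 0.0107) were lower. The part of myeloid cell states in the differences was not tested.

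Probe sets with a mean intensity above 21.93, the 30th percentile of all, were tested with limma on log2(intensity + 16), which understates the change of dim probe sets. The threshold was an adjusted p of 0.05 over all of them. Of the 28 member probe sets 26 were tested, and the remaining 2, of Pik3ca and Akt1, were dimmer than the filter. All but 1 of the 26 had means above the filter in both groups; a Pik3cd probe set passed only through the wild type. Past the threshold were 3 member probe sets, 1 of Pik3ap1 and 2 of Pik3r1, all higher in the knockout, beside 7.98% of all probe sets in either direction and 4.08% in the higher direction. The arrays of the groups did not overlap for 16 of the 26, all higher in the knockout, beside 27.3% of all probe sets in that direction. Since the members were chosen on this contrast, nothing is read from these counts.

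**Figure D1:**
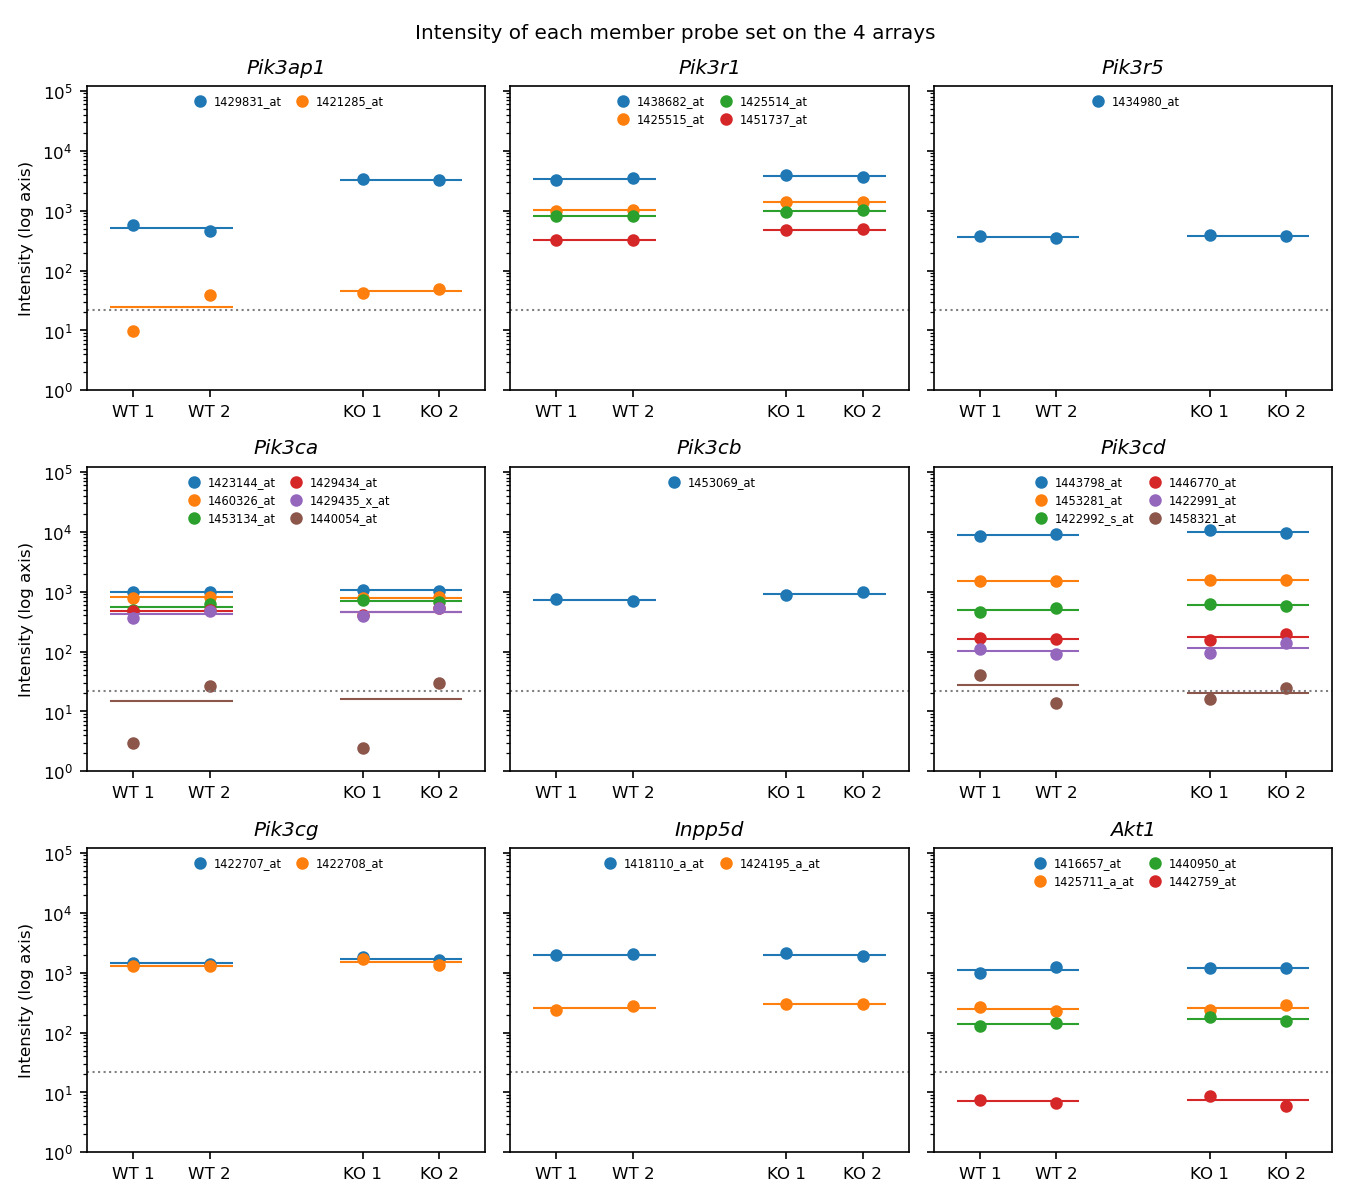
Intensity (log axis) of the 28 member probe sets on the 4 arrays, 1 panel per gene and 1 colour per probe set. Horizontal lines are group means (n = 2 arrays) and the dotted line is the filter at 21.93; the upper Pik3ap1 probe set reads 577 and 450 in the wild type and 3312 and 3227 in the knockout, while the other panels show smaller steps.

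Pik3ap1 had 2 probe sets, of very different brightness. The bright one, 1429831_at, read 577 and 450 on the wild-type arrays and 3312 and 3227 on the knockout arrays. Both knockout values lay far above both wild-type values. The group means were 513 ± 89.9 and 3269 ± 60.6 (SD, n = 2 arrays each, as for all intensities below). The log2 difference, knockout minus wild type, was 2.64 (SE 0.11), or 6.25-fold, the 6th highest of 25580 probe sets. It ran from 2.47 to 2.82 when 1 array was left out, and was 2.55 after each array was centred on its median.

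The dim Pik3ap1 probe set, 1421285_at, read 9.93 and 39.5 in the wild type and 41.5 and 48.8 in the knockout. The values did not overlap, but the wild-type arrays lay much farther apart from each other than wild-type replicate 2 lay from the knockout. The log2 difference was 0.69 (SE 0.48). It came to 0.14 when wild-type replicate 1 was left out and to 1.24 when wild-type replicate 2 was, so its size rested on the single reading of 9.93. The 6.25-fold value thus came from 1 probe set, and the other read near the filter. Where in the transcript each probe set lies was not analysed here.

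Pik3ap1 takes its common name from B cells, so B-cell markers were read beside it. Of the 10 listed genes 9 had a probe set and 7 lay above the filter; Cd79a and Ebf1 were below it, and 0 passed the threshold in limma, also at an unadjusted p under 0.05. The summed intensity of the 9 was 1134 and 1074 in the wild type and 1030 and 1201 in the knockout, so the groups overlapped. Most of it came from Cd79b, at 763, 739, 761 and 848 in the order wild type 1 and 2 and knockout 1 and 2. Pax5 read between 13.6 and 57.3 and Ms4a1 between 13.9 and 48.1, both near the filter. The summed T-cell markers, 7 probe sets of 8 listed genes, were 283 and 194 in the wild type and 452 and 311 in the knockout. These sums were apart only through Bcl11b, at 56.1 and 62.7 against 195 and 170, and the sums of the rest overlapped. Bcl11b passed the threshold (log2 difference 1.40, limma adjusted p = 0.00643), and Cd3d, Cd3g and Cd4 were below the filter. The NK-cell markers summed to 183 and 108 against 207 and 227, with 5 of 7 below the filter and 0 past the limma threshold (0 at an unadjusted p under 0.05). The dendritic-cell markers, 8 genes with 4 below the filter, summed to 957 and 890 against 628 and 752. Bst2 was lower (log2 difference -0.78, limma adjusted p = 0.00422), at 638 and 633 against 340 and 389, and the sums of the rest overlapped. Of the 8 erythroid markers 6 had a probe set and 0 passed in limma (0 at an unadjusted p under 0.05), at sums of 261 and 271 against 268 and 294. The part of such cells in the differences was not tested, and in bulk RNA fewer cells of a type and less RNA per cell cannot be told apart.

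Pik3r1 encodes p85 alpha and its shorter forms, the regulatory chains that hold p110 and bind phosphorylated adaptors. All 4 of its probe sets read higher in both knockout arrays than in both wild-type arrays. The brightest, 1438682_at, read 3225 and 3455 in the wild type and 3936 and 3689 in the knockout, a log2 difference of 0.19 (SE 0.07). The other 3 were designed on a shared source sequence.

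Of those 3, probe set 1425515_at read 1004 and 1007 in the wild type and 1386 and 1390 in the knockout, which is 1006 ± 2.53 and 1388 ± 3.04 and a log2 difference of 0.46 (SE 0.08, 1.37-fold). Probe set 1451737_at read 327 and 321 in the wild type and 482 and 486 in the knockout, a difference of 0.56 (SE 0.12, 1.47-fold). Within each group the arrays agreed to within a few units in both cases. Probe set 1425514_at read 803 and 826 against 944 and 1012, a difference of 0.26 (SE 0.09). The last did not pass the threshold, nor did 1438682_at. After median centring neither of the pair that passed remained past it, at 0.36 and 0.46. Probe set 1451737_at was also not past it when any 1 of the 4 arrays was left out, at 0.54 to 0.57. A fit that leaves out an array has 1 array in that group, which is assumed to vary like those of the other group; this holds for all such fits below.

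Pik3r5 encodes p101, the regulatory partner of the gamma catalytic chain downstream of G protein-coupled receptors. Its only probe set, 1434980_at, read 375 and 349 in the wild type and 393 and 370 in the knockout. The groups overlapped, and the log2 difference was 0.07 (SE 0.13; -0.02 after median centring).

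Of the 14 tested probe sets of the catalytic chains 0 passed the threshold in limma, and 5 had an unadjusted p under 0.05, as had 21.9% of all probe sets tested. Pik3cb encodes the beta chain. Its probe set 1453069_at read 747 and 699 in the wild type and 866 and 967 in the knockout, 723 ± 34.5 against 916 ± 71.2. The arrays did not overlap, and the log2 difference was 0.33 (SE 0.10, 1.26-fold).

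Pik3cg, the gamma chain activated by G protein subunits, had 2 probe sets designed on the same source sequence. In 1422707_at the readings were 1444 and 1417 in the wild type and 1799 and 1635 in the knockout, a log2 difference of 0.26 (SE 0.08). In 1422708_at they were 1288 and 1290 against 1681 and 1358, a difference of 0.23 (SE 0.10). Both read higher in the knockout without overlap, and in both the first knockout array was the higher. Leaving out knockout replicate 1 gave 0.07 for 1422708_at, and leaving out knockout replicate 2 gave 0.38.

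Pik3cd, the delta chain of leukocytes, had 6 probe sets. The brightest, 1443798_at, read 8546 and 9209 in the wild type and 10562 and 9451 in the knockout, a log2 difference of 0.17 (SE 0.07) without overlap. Probe set 1453281_at read 1486 and 1527 against 1571 and 1536, a difference of 0.04 (SE 0.08), and -0.05 after median centring. Probe set 1422992_s_at, whose suffix marks probes that match more than 1 transcript, read 463 and 530 against 621 and 583, a difference of 0.27 (SE 0.12).

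The remaining Pik3cd probe sets overlapped between the groups. Probe set 1446770_at lay between 155 and 196 and 1422991_at between 91.9 and 138 over the 4 arrays, with differences of 0.07 (SE 0.19) and 0.16 (SE 0.26). The dimmest, 1458321_at, lay between 13.97 and 40.7 around the filter, with a difference of -0.18 (SE 0.51). Its sign turned to 0.28 without wild-type replicate 1.

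Pik3ca, the alpha chain expressed in most tissues, had 6 probe sets, and 4 of them overlapped between the groups. Probe set 1423144_at read 997 and 974 in the wild type and 1074 and 1025 in the knockout, a log2 difference of 0.09 (SE 0.09). Probe set 1460326_at, from the same source sequence, read 791 and 825 against 782 and 806, a difference of -0.03 (SE 0.09). Both were below 0 after median centring (-0.007 and -0.12) and above 0 without wild-type replicate 2 (0.07 and 0.004).

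A second source sequence of Pik3ca underlay 3 further probe sets. Of these 1453134_at read 497 and 624 in the wild type and 732 and 675 in the knockout, a difference of 0.33 (SE 0.13). Leaving out wild-type replicate 1 made it 0.17, and leaving out wild-type replicate 2 made it 0.49. Probe set 1429434_at gave -0.05 (SE 0.14) and 1429435_x_at, whose suffix marks probes prone to cross-hybridisation, gave 0.13 (SE 0.17). The untested 1440054_at read 2.94 and 26.7 against 2.48 and 29.3, with a mean below the filter.

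Inpp5d, the phosphatase that opposes the kinases at PIP3, had 2 probe sets. The brighter, 1418110_a_at, read 1937 and 2008 in the wild type and 2104 and 1878 in the knockout, so the wild-type arrays lay between the knockout arrays. Its log2 difference was 0.01 (SE 0.08). The dimmer, 1424195_a_at, read 240 and 280 against 303 and 296, a difference of 0.20 (SE 0.15).

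Akt1, the serine kinase recruited by PIP3, had 4 probe sets. The brightest, 1416657_at, read 995 and 1239 in the wild type and 1175 and 1177 in the knockout, with both knockout values inside the wild-type range and a log2 difference of 0.08 (SE 0.11). It was -0.01 after median centring, -0.07 with wild-type replicate 1 left out, and 0.24 with wild-type replicate 2 left out. Probe set 1425711_a_at gave 0.06 (SE 0.17) with overlapping groups. Probe set 1440950_at read 127 and 146 against 181 and 156, a difference of 0.27 (SE 0.20). The untested 1442759_at lay between 6.02 and 8.69 on all arrays, below the filter.

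**Figure D2:**
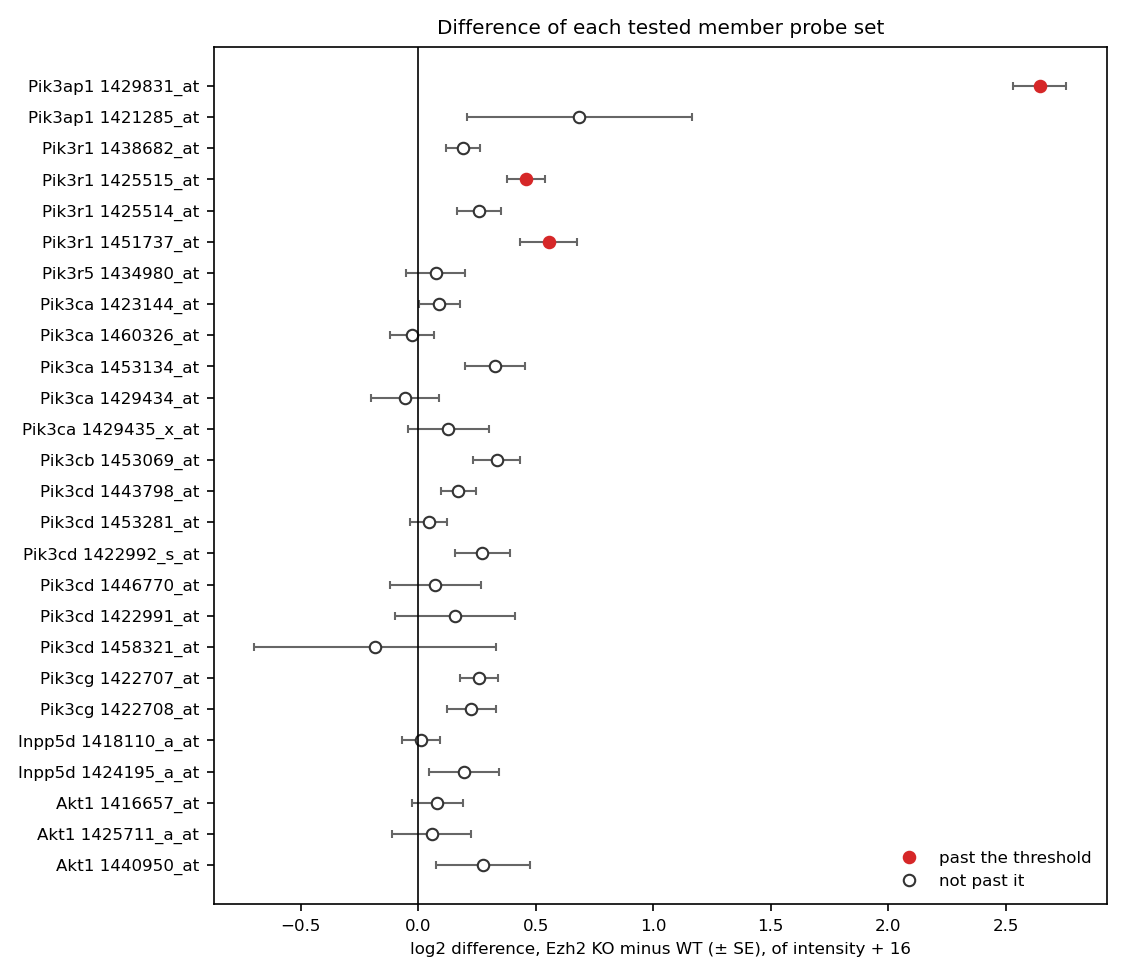
Log2 difference (Ezh2 KO minus wild type, of intensity + 16) of the 26 tested member probe sets, with standard errors from the limma fit (n = 2 arrays per group). Filled points are the 3 past the threshold; Pik3ap1 1429831_at lies at 2.64 and all other probe sets between -0.18 and 0.69.

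Taking each gene at its brightest probe set, the order of the log2 differences was Pik3ap1, Pik3cb, Pik3cg, Pik3r1, Pik3cd, Pik3ca, Akt1, Pik3r5 and Inpp5d. Each step from Pik3cb on was between 0.008 and 0.08, smaller than its combined standard error of 0.10 to 0.17, so neighbours from Pik3cb to Inpp5d are not ordered beyond their error. Leaving Pik3ap1 aside, 21 of the 24 tested probe sets had a positive difference and 3 a negative one, of which 1 is the dim Pik3cd probe set whose sign turned. Of all 13928 genes tested, each at its brightest probe set, 7075 had a positive difference. The counts of the members changed with the scaling of the arrays: over all 26 they were 23 to 3 as deposited, 21 to 5 after quantile normalization and 16 to 10 after median centring. The median over all probe sets tested moved with it, from 0.03 to -0.01 and -0.07, and the median of the 26 from 0.18 to 0.16 and 0.08.

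The 5 genes whose profile over the 4 arrays was nearest to that of the bright Pik3ap1 probe set were found by the distance between log2 values, each profile centred on its own mean. Predicted or unnamed transcripts and the members were left out of this search. The 5 nearest of the remaining genes were Cdk5rap1 at a distance of 0.20, Rbp4 at 0.25, Yes1 at 0.36, Stag3 at 0.44 and Tcf24 at 0.45. Cdk5rap1, an enzyme that modifies transfer RNA, read 384 and 360 in the wild type and 2332 and 2490 in the knockout. Rbp4, the retinol carrier, read 301 and 180 against 1546 and 1587, and like Pik3ap1 had its lowest value in wild-type replicate 2. Over 4 arrays in 2 groups this likeness amounts to a step of similar size and describes nothing more.

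**Figure D3:**
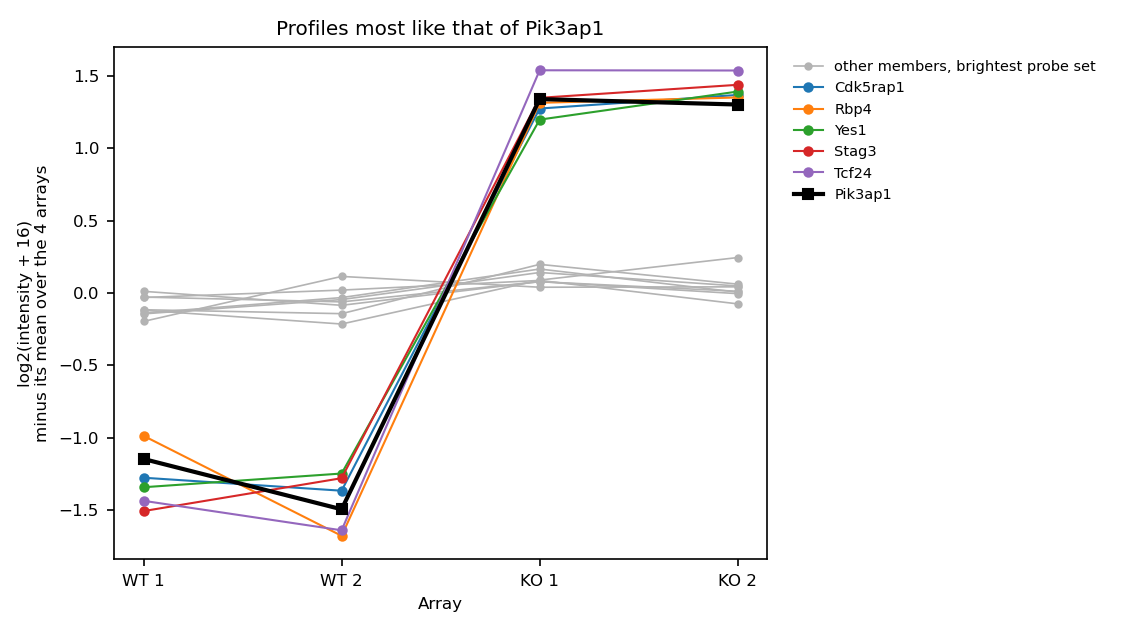
Log2(intensity + 16) minus its mean over the 4 arrays, for the bright Pik3ap1 probe set (black), the 5 genes nearest to it (colours; predicted or unnamed transcripts and members left out) and the brightest probe set of each other member (grey). The black and coloured lines step up between the wild-type and knockout arrays together, at distances of 0.20 to 0.45 from Pik3ap1, while the grey lines stay near 0.

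Other genes of phosphoinositide signalling, listed by role and not by how they moved, numbered 141; the list was drawn up with earlier results of these data known and is not independent evidence. Of these 126 were tested at their brightest probe set. In this list 5 genes rose and 3 fell, beside 9.61% of all 13928 genes tested that changed in either direction (4.67% higher and 4.93% lower); 8 of 126 is 6.35%. The median log2 difference of the list was 0.07, and that of all genes 0.006. Of the 15 genes not tested 7 were below the filter and 8 are not analysed here.

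Among receptors and adaptors upstream of the kinases 0 of 25 rose and 1 fell. Il3ra, the alpha chain of the interleukin 3 receptor, read 150 and 189 in the wild type and 84.3 and 70.8 in the knockout, 1.97-fold lower (log2 difference -0.98, SE 0.23, limma adjusted p = 0.0342). The groups were well apart, but the call was lost without wild-type replicate 1 (-1.13, adjusted p = 0.0653), wild-type replicate 2 (-0.83, adjusted p = 0.171) or knockout replicate 2 (-0.88, adjusted p = 0.0666), and with no filter on dim probe sets (adjusted p = 0.109).

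Of the 4 other regulatory chains and inhibitors of class I enzymes 0 passed in limma (1 had an unadjusted p under 0.05). Their log2 differences ran from -0.22 to 0.82. The latter was that of the dim Pik3r3 (SE 0.38), at 49.9 and 21.9 in the wild type and 71.8 and 72.8 in the knockout. Pik3r6, the alternative partner of the gamma chain, had a log2 difference of 0.07 (SE 0.08; -0.03 after median centring). Pik3ip1, a membrane inhibitor of the kinases, read 859 and 889 in the wild type and 741 and 751 in the knockout, a difference of -0.22 (SE 0.09, limma adjusted p = 0.191). Of the 6 class II and III kinases and partners 0 passed in limma, also at an unadjusted p under 0.05; Becn1, of the class III complex in autophagy, had -0.05 (SE 0.07) and Uvrag 0.09 (SE 0.11).

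Of the 11 kinases that supply the lipid substrates 1 rose. Pip5k1b, which makes the substrate of class I enzymes, read 424 and 439 in the wild type and 627 and 695 in the knockout (1.51-fold, log2 difference 0.60, SE 0.11, limma adjusted p = 0.0118). Its second probe set also rose (0.55, adjusted p = 0.0299), and the other had 0.40 (adjusted p = 0.0970). The call of the first was lost after median centring (0.50, adjusted p = 0.0538) and without wild-type replicate 1 (0.57, adjusted p = 0.0533).

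Of the 20 genes listed as lipid phosphatases 1 rose and 2 fell. The 1 that rose, Inpp5a, acts on soluble inositol phosphates, so it is not a lipid phosphatase in the strict sense. Inpp5a read 427 and 415 in the wild type and 621 and 678 in the knockout (1.52-fold, limma adjusted p = 0.0107). Mtm1, the phosphatase myotubularin, read 10061 and 11988 against 7399 and 7330 (log2 difference -0.58, SE 0.08, adjusted p = 0.00299). Another Mtm1 probe set fell more, by 0.87 on the log2 scale (adjusted p = 0.00172), while the last had 0.34 in the other direction (adjusted p = 0.179).

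Inppl1 encodes SHIP2, the close relative of Inpp5d. It read 209 and 194 in the wild type and 86.0 and 125 in the knockout, 1.82-fold lower (log2 difference -0.86, SE 0.22, limma adjusted p = 0.0463). Its call was lost without wild-type replicate 1 (-0.81, adjusted p = 0.166), wild-type replicate 2 (-0.91, adjusted p = 0.114) or knockout replicate 1 (-0.63, adjusted p = 0.175), and with no filter (adjusted p = 0.128). The brighter Inpp5d probe set differed by 0.01 in the same arrays; the difference between these phosphatases was not tested.

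Of the 27 effectors that bind PIP3 or act next to it 1 rose, Rasa3, a GTPase-activating protein of Ras and Rap. It read 1601 and 1693 in the wild type and 2174 and 2000 in the knockout (1.26-fold, log2 difference 0.34, SE 0.08, limma adjusted p = 0.0323). The call was lost after median centring (0.24, adjusted p = 0.267) and without wild-type replicate 1 (0.30, adjusted p = 0.142), wild-type replicate 2 (0.38, adjusted p = 0.0644) or knockout replicate 1 (0.28, adjusted p = 0.134), and with no filter (adjusted p = 0.0609).

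Of the 33 genes of the Akt and mTOR axis 2 rose and 0 fell. Phlpp1, a phosphatase that dephosphorylates Akt, read 217 and 220 in the wild type and 485 and 429 in the knockout (2.01-fold, log2 difference 1.01, SE 0.14, limma adjusted p = 0.00243). Rictor, the defining subunit of the mTORC2 complex that phosphorylates Akt, read 609 and 613 against 885 and 960 (1.50-fold, log2 difference 0.58, SE 0.10, adjusted p = 0.00656). A second Rictor probe set rose (0.59, adjusted p = 0.0441), 2 had 0.68 and 0.27 without passing, and the dimmest had -0.18. In the fits that left out 1 array the calls of Phlpp1, Rictor, Inpp5a and Mtm1 were not lost, whereas a single prior variance for all probe sets left 0 of the 8 genes past the threshold.

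**Figure D4:**
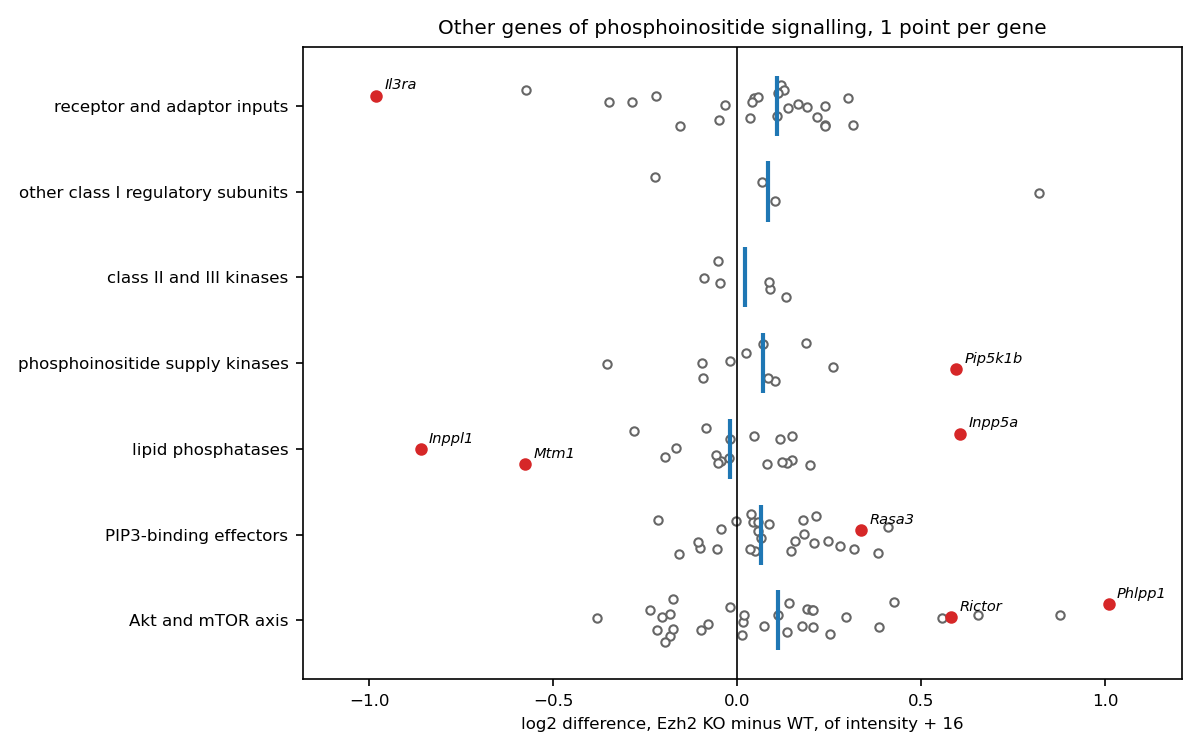
Log2 difference (Ezh2 KO minus wild type, of intensity + 16) of the 126 tested pathway genes that are not members, 1 point per gene at its brightest probe set, in rows by role. Filled, named points are the 8 genes past the threshold, from Il3ra at -0.98 to Phlpp1 at 1.01, and vertical bars mark the median of each row.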

How the data were processed

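The authors deposited 1 intensity per probe set and array, on a linear scale. Affymetrix Expression Console is named by the submitters' processing notes; version and algorithm are not given in the sources used here. Their scaling was read from the values: each array's mean, trimmed by 2% at each end, was 500.003. Scaling of this kind removes differences in total mRNA per cell. Of 45101 rows 64 were controls and were left out, 34945 had a single gene symbol, 932 several and 9160 none in the platform's gene table.

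Each single-symbol probe set above the 30th percentile of mean intensity was fitted in limma 3.58.1 (R 4.3.3) with lmFit and eBayes, a prior variance following intensity and no covariate, on 2 residual degrees of freedom (9.42 with the prior). P-values were adjusted by Benjamini-Hochberg over 25580 probe sets. The fit was also run on simulated data whose variances were drawn from its own fitted prior. That run cannot test the prior, and its outcome is not given here. Members and gene lists were chosen with earlier results of these data known. Named genes were all members, up to 3 changed genes per role (otherwise the 2 brightest) and the 5 nearest profiles. Predicted or unnamed transcripts and members were left out of the search for near profiles. The plan to name up to 4 markers per list, those of highest mean, was not kept. Several markers, and Pik3r3, were named after their values were seen. Pik3r3 is not among the named pathway genes counted over the settings below. Replicate numbers come from the titles. Wild-type and knockout samples of the same number deviated from their group means at r = 0.039 over 25580 probe sets, which does not pair them. Figures were drawn with matplotlib 3.10.9.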

Additional observations from a re-analysis of the deposited data

How the results depend on the processing

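The fit was repeated with quantile normalization, median centring, no filter, a filter at the 50th percentile, pseudocounts of 1 and 64, 1 probe set per gene, a robust prior, a single prior variance, the replicate block, and without each array, 14 settings in all. Called were 2042 probe sets, 3 of them members, and 8 pathway genes. The replicate block gave 3469, 5 (adding Pik3cb 1453069_at and Pik3cg 1422707_at) and 14. A single prior variance gave 0, 0 and 0 (4206, 4 and 11 at an unadjusted p under 0.05). No filter gave 1229 probe sets and 5 pathway genes. Members called were 1 with median centring and 1 with 1 probe set per gene, which leaves the called Pik3r1 probe sets out. Counting every tested probe set of the pathway list gave 15 of 276. Leaving out 1 array gave 1112 to 2030 probe sets, 2 to 3 members and 4 to 9 pathway genes; the lowest counts, 1112 and 4, were without wild-type replicate 1, and 1316 probe sets were called without wild-type replicate 2. Median centring changed the split of calls from 1043 higher and 999 lower to 505 and 1088. No called member reversed. Of the members' values 327 moved by less than the spread between replicates and 18 by more. The filters, 1 probe set per gene, the priors and the replicate block cannot change a log2 difference. Leaving out 1 array cannot move it by more than that spread. All 18 came from a normalization or a pseudocount, so the 327 is no measure of stability. Named pathway genes kept their side of the threshold in 145 cases and lost it in 23, the latter all among the 8 called genes. The 145 include every case of Pik3r6, Pik3ip1, Becn1 and Uvrag, which had no call to lose, so they overstate how stable the calls were. The 2 arrays per group limit all calls, and readings near 21.93 cannot be told from background here.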
